A study of Homo sapiens with 10 samples.

Results

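The H3K27ac signal of a stretch of human chromosome 12, band 12q13-q14, was examined in Rh30 cells, the stretch that surrounds GLI1 and CDK4 and is reported as amplified in this line. Its members are all count windows on chromosome 12 whose start lies from 57000000 to 60000000 on hg19. This rule uses position only and gave 219 of 42067 windows, or 0.521%. Rh30 is an established human alveolar rhabdomyosarcoma line. Every group carried the same construct, the PAX3-FOXO1 fusion transcription factor joined to FKBP, a degron that the ligand dTAG47 brings to the cell's protein disposal machinery. The groups were DMSO, the solvent control with no time in the labels, and 500 nM dTAG47 for 2 h, 4 h or 24 h. Each had 2 libraries from chromatin immunoprecipitation of histone H3 acetylated at lysine 27 (H3K27ac). Neither the number of clones behind the line nor whether the libraries of a group came from separate cultures is given in the sources used here, so p-values measure a spread that may be technical.

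H3K27ac is found at active promoters and enhancers, and dense clusters of such sites often lie at genes that a cell type expresses strongly. The 12q13-q14 stretch is known as an amplicon of several cancers, including a subset of alveolar rhabdomyosarcoma. CDK4 is the cyclin-dependent kinase that, with D-type cyclins, phosphorylates the retinoblastoma protein and lets cells pass from G1 into S phase. GLI1 is a zinc finger transcription factor at the end of the Hedgehog pathway. In a cell with extra copies of a stretch, each copy adds reads to a chromatin immunoprecipitation, so signal per copy and copy number cannot be told apart in counts alone. Input libraries, which would carry copy number, were not analysed here. In bulk chromatin, a mark lost from some cells and a weaker mark in every cell cannot be told apart either.

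In the RefSeq gene order, 22 genes lie between GLI1 and CDK4, 14 of them protein-coding. Among them are DDIT3, a transcription factor of the stress response, KIF5A, a kinesin motor, OS9, a lectin of protein quality control in the endoplasmic reticulum, B4GALNT1, an enzyme of ganglioside synthesis, and TSPAN31, a tetraspanin. Another 8 genes lie between CDK4 and CTDSP2, a phosphatase gene. They include CYP27B1, which activates vitamin D, and METTL1, a tRNA methyltransferase. MIR26A2, a miRNA gene, lies within CTDSP2. This order was read from a GRCh38 table, another build than that of the counts, and no window was assigned to any of these genes.

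A promoter and a miRNA of the stretch are shown to identify the cell cycle kinase and the small RNA that it holds. The first is the CDK4 promoter, 250 bases before to 50 bases after the RefSeq start, on GRCh38.p14 chr12:57752261-57752560, minus strand, with the GC box (GGGCGG or its complement CCGCCC) in capitals. The second is the mature miR-26a-5p of MIR26A2 with its seed, bases 2 to 8, in capitals.
CDK4 promoter: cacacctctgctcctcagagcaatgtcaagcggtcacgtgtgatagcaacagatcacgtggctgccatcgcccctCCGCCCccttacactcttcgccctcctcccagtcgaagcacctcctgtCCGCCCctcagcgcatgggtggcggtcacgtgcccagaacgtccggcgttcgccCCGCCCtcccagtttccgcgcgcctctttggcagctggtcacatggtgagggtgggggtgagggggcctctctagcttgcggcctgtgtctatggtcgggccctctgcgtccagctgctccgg
hsa-miR-26a-5p: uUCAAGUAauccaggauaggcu
The CDK4 promoter is 66% G and C, against a median of 58.7% over 35116 RefSeq promoters of this length, and has 23 CpG dinucleotides against a median of 14. It holds 3 GC boxes over both strands, a motif present in 45.0% of these promoters. The E-box CAGCTG, the core of sites bound by muscle transcription factors of the MyoD family, has 2 matches and is present in 18.0%. The paired-domain core GTCAC has 3 matches and is present in 42.5%. The homeodomain core ATTA has 0 matches and is present in 50.2%. The letters of the GLI site GACCACCCA are not in this stretch of sequence and occur in 0.236% of promoters. These matches describe sequence only.

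The stretch held some of the strongest H3K27ac windows of the table. Levels are counts per library size (CPM) scaled by TMM and averaged over the 8 libraries, and windows are nearly all 400 bases wide. The median level was 22.5 CPM in the 219 windows and 13.5 CPM in the 41848 others, a ratio of 1.66 that ranged from 1.37 to 1.93 over single libraries. The mean level was 69.9 CPM against 23.5 CPM, a ratio of 2.97. Windows ran from 3.25 to 1130 CPM. Of the 219, 35 (16.0%) exceeded 120 CPM, the 99th percentile of the other windows, while 52 lay below the others' median. The stretch held 7 of the 10 strongest windows of the table, 28 of the top 100 and 42 of the top 1000. Among 979 tiles of 3 Mb with a window, it ranked 1 by summed level (15302 CPM, the next tile 12982 CPM), 2 by number of windows (219, the largest 274) and 73 by median level. These levels are a description with no test, since neighbouring windows are not replicates.

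**Figure D1:**
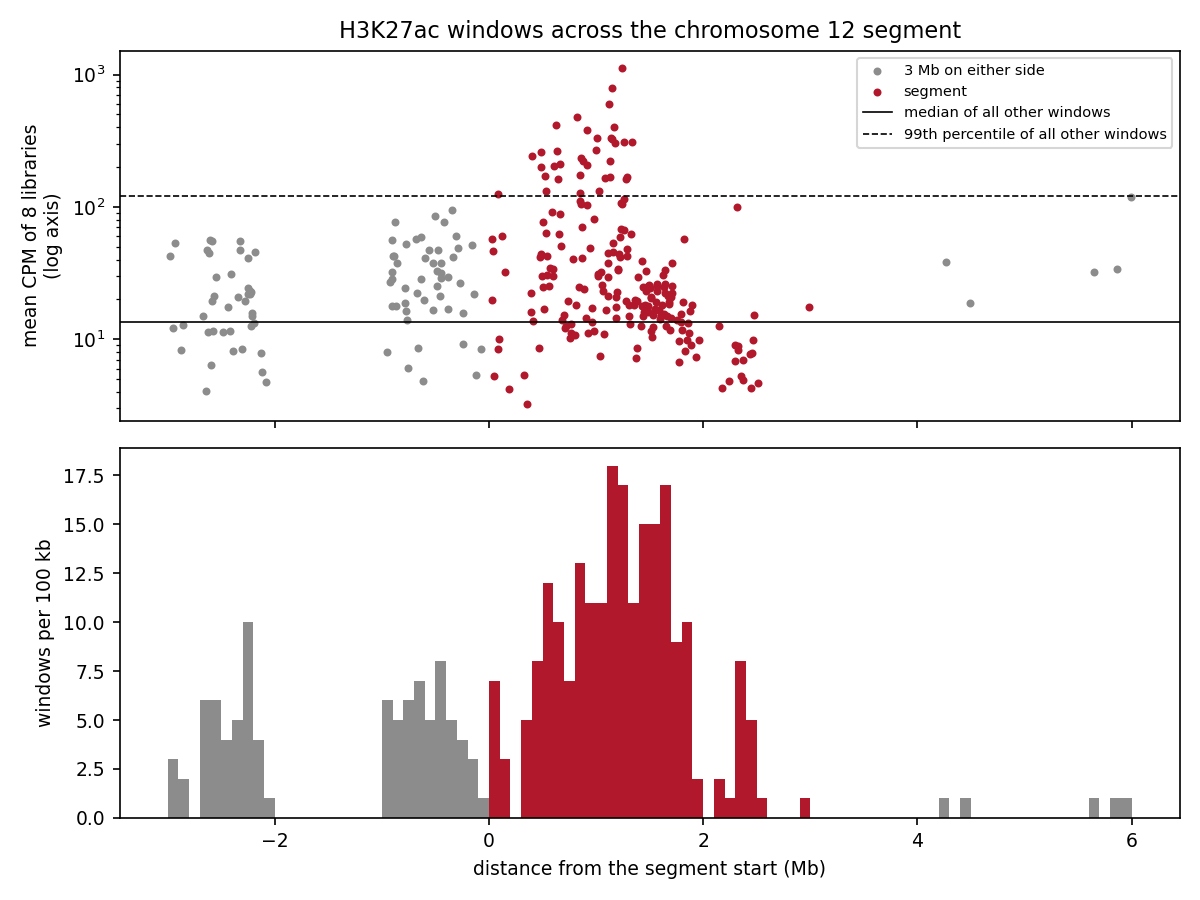
Mean level of each window over 8 libraries (CPM, log axis, top) and number of windows per 100 kb (bottom) against the distance from the start of the stretch in Mb. Red marks the 219 windows and grey those within 3 Mb on either side, and the lines are the median (solid, 13.5 CPM) and 99th percentile (dashed, 120 CPM) of all other windows. The strongest windows sit 0.4 to 1.4 Mb from the start, a crowded run of weaker windows follows them, and few windows lie beyond.

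The signal was not even along the stretch, and 4 pieces, whose limits were chosen after the levels were seen, describe it. From 57 to 57.4 Mb there were 15 windows with a median of 19.7 CPM. From 57.4 to 58.4 Mb there were 118 windows with a median of 42.6 CPM, and 33 of the 35 windows above 120 CPM lay here. In this strong piece the levels spread widely, with a coefficient of variation of 146%. From 58.4 to 59 Mb, 68 windows lay about as close together (median gap 6.34 kb, against 7.22 kb in the strong piece) but at a median of 17.4 CPM, a maximum of 57.5 CPM and a coefficient of variation of 44.0%. No window of this weak, crowded piece passed 120 CPM. From 59 to 60 Mb only 18 windows remained, with a median of 7.73 CPM.

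Windows were crowded across both middle pieces. The median gap between neighbours was 7.55 kb over the whole stretch and 20.2 kb over the table. Of 14834 bins of 100 kb with a window in the table, 36 (0.243%) held 15 or more, and 5 of these were among the 25 occupied bins of the stretch. The fullest began at 58.1 Mb and held 18 windows, where the median bin of the table held 2. On the lower side the limit at 57000000 fell in a gap between windows: chr12:56921011-56921411 lay just outside at 8.38 CPM and chr12:57023725-57024125 just inside at 56.9 CPM. On the upper side windows were sparse, with chr12:59990045-59990445 just inside at 17.6 CPM and chr12:61266768-61267168 just outside at 38.4 CPM. The 3 Mb below the stretch held 91 windows with a median of 22.6 CPM and a maximum of 95.2 CPM. The 3 Mb above it held 5. The median of the lower flank was thus close to that of the stretch. They differed in the number of windows, 91 against 219, and in the strongest windows.

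The strongest window was chr12:58240143-58240543, the table's number 2. It measured 1098 and 1136 CPM in the DMSO libraries, 1147 and 1164 CPM at 2 h, 1121 and 1144 CPM at 4 h, and 1114 and 1117 CPM at 24 h. The DMSO values enclosed those at 24 h. Its log2 change against DMSO at 24 h was -0.00 (SE 0.05, edgeR quasi-likelihood test, adjusted p = 0.985). The next, chr12:58145750-58146150, had means of 797 ± 13.7 CPM in DMSO, 799 ± 4.95 CPM at 2 h, 806 ± 20.4 CPM at 4 h and 779 ± 3.78 CPM at 24 h (SD, n = 2). Its 24 h libraries lay below both DMSO libraries by less than the test resolved (log2 change -0.03, SE 0.05, edgeR adjusted p = 0.792).

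The other 8 of the 10 strongest windows began at 58120039 (602 CPM), 57824295 (476 CPM), 57623584 (417 CPM), 58165576 (401 CPM), 57916536 (382 CPM), 58005064 (334 CPM), 58138748 (334 CPM) and 58148801 (326 CPM). All 10 lay in the strong piece. A single one of the 10 was called at any time against DMSO: the window at 58165576 measured 424 and 436 CPM in DMSO and 372 and 394 CPM at 24 h, with no overlap. It fell by 0.17 on the log2 scale (SE 0.06, edgeR adjusted p = 0.041), a call that was lost with total counts in place of TMM and without any 1 of the 4 libraries. At 24 h the other 9 had log2 changes from -0.08 to 0.13.

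Neighbouring windows were stitched into clusters over the whole table, with the gap that the ROSE program uses by default to outline super-enhancers. The stretch gave 46 clusters, 18 of them single windows, and the 28 others had a median of 4 windows against 2 elsewhere. The stretch held 3 of the table's 10 strongest clusters by summed level and 9 of the top 100. The cluster at chr12:58106998-58290552 ranked 1 of 26314 by signal, by width (183.554 kb) and by number of windows (35). It summed to 5899 and 5872 CPM in DMSO, 6086 and 5987 CPM at 2 h, 6072 and 5986 CPM at 4 h, and 6109 and 6104 CPM at 24 h. All 6 treated libraries were above both DMSO libraries, by little: the log2 changes were 0.04, 0.04 and 0.05 (SE 0.03 each), with edgeR adjusted p = 0.626, 0.593 and 0.189.

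The cluster at chr12:57843365-57926303 ranked 2, with 15 windows. It summed to 1774 and 1788 CPM in DMSO, 1922 and 1899 CPM at 2 h, 1862 and 1905 CPM at 4 h, and 1859 and 1786 CPM at 24 h. The 2 h and 4 h libraries lay above DMSO and the 24 h libraries overlapped it. The log2 change at 2 h was 0.10 (SE 0.03, edgeR adjusted p = 0.0618), which did not pass the threshold of 0.05. The clusters starting at 57462271 (rank 7), 57623584 (rank 11) and 57998528 (rank 12) were also not called, with log2 changes at 24 h of 0.10 (edgeR adjusted p = 0.0511), -0.10 (0.0552) and 0.04 (0.58). The widest cluster of the weak, crowded piece, chr12:58590062-58712645, had 23 windows over 122.583 kb and ranked 4 by width and 59 by signal. Its libraries spread widely within groups, 506 and 374 CPM at 2 h and 503 and 409 CPM at 4 h, and its log2 change at 24 h was 0.09 with an SE of 0.20 (edgeR adjusted p = 0.869).

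The share of H3K27ac counts that fell in the stretch differed little between groups. The share of all counts was 1.503 and 1.504% in the DMSO libraries (95% Wilson intervals 1.49 to 1.52%). After 2 h of dTAG47 it was 1.560 and 1.496%, after 4 h 1.550 and 1.504%, and after 24 h 1.581 and 1.538%. The 2 h libraries enclosed the DMSO values, whereas both libraries at 4 h and at 24 h were above DMSO, library B of 4 h by less than its counting interval. These shares use total counts without TMM. With TMM the stretch summed to 15150 CPM in each DMSO library and 15393 and 15095 CPM at 4 h, so library B of 4 h was then below DMSO. Both 24 h libraries stayed above it, at 15668 and 15289 CPM. The log2 ratios to DMSO were 0.02, 0.02 and 0.05. Two-sided exact permutation tests over the libraries gave p = 1, 0.33 and 0.33, and 0.33 is the smallest p that 2 libraries against 2 allow. Intervals cover counting error only.

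The response of single windows to dTAG47 was tested by edgeR's quasi-likelihood test over all 41791 windows with enough counts. All 219 windows of the stretch were among them. The comparisons at the 3 times share the same DMSO libraries. At 2 h, 1 window fell (0.457%) and 2 rose (0.913%), against 1.03% lower and 0.194% higher over the table. At 4 h, 1 fell (0.457%) and 5 rose (2.28%), against 1.67% and 0.567% over the table. At 24 h, 6 fell (2.74%) and 8 rose (3.65%), against 4.88% and 3.46% over the table. The 14 called at 24 h are 6.39% of the stretch, where the table had 8.35%, so the pooled share was near the background. It differed by level, split at 30 CPM, a cut chosen after the levels were seen. At 30 CPM or more, 11.6% were called in the stretch and 7.47% elsewhere. Among weaker windows the shares were 3.01% and 8.66%. Whether these shares differ was not tested. In all, 19 windows were called at some time against DMSO, 1 at all 3 times and 200 at none. At 24 h no window of the stretch changed by more than 1 on the log2 scale, and 914 of 41791 did so in the table. The median standard error of the log2 change at 24 h was 0.157 in the stretch and 0.203 in the table.

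Many of these calls were lost when 1 library was left out. Calls also became fewer over the whole table in every one of these fits, so such losses are not particular to the stretch. How far the losses in the stretch go beyond that was not tested. Of the 14 at 24 h, 5 remained called without DMSO library A, 5 without DMSO library B, 8 without 24 h library A and 4 without 24 h library B. Of the 6 at 4 h, 3 remained without DMSO library A and 1 without each of the others. Of the 3 at 2 h, 1 remained without DMSO library A, 0 without DMSO library B, 2 without 2 h library A and 1 without 2 h library B. The windows at 58129018 and 58427906 remained called at 24 h in every one of these fits, and the first also at 4 h.

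**Figure D2:**
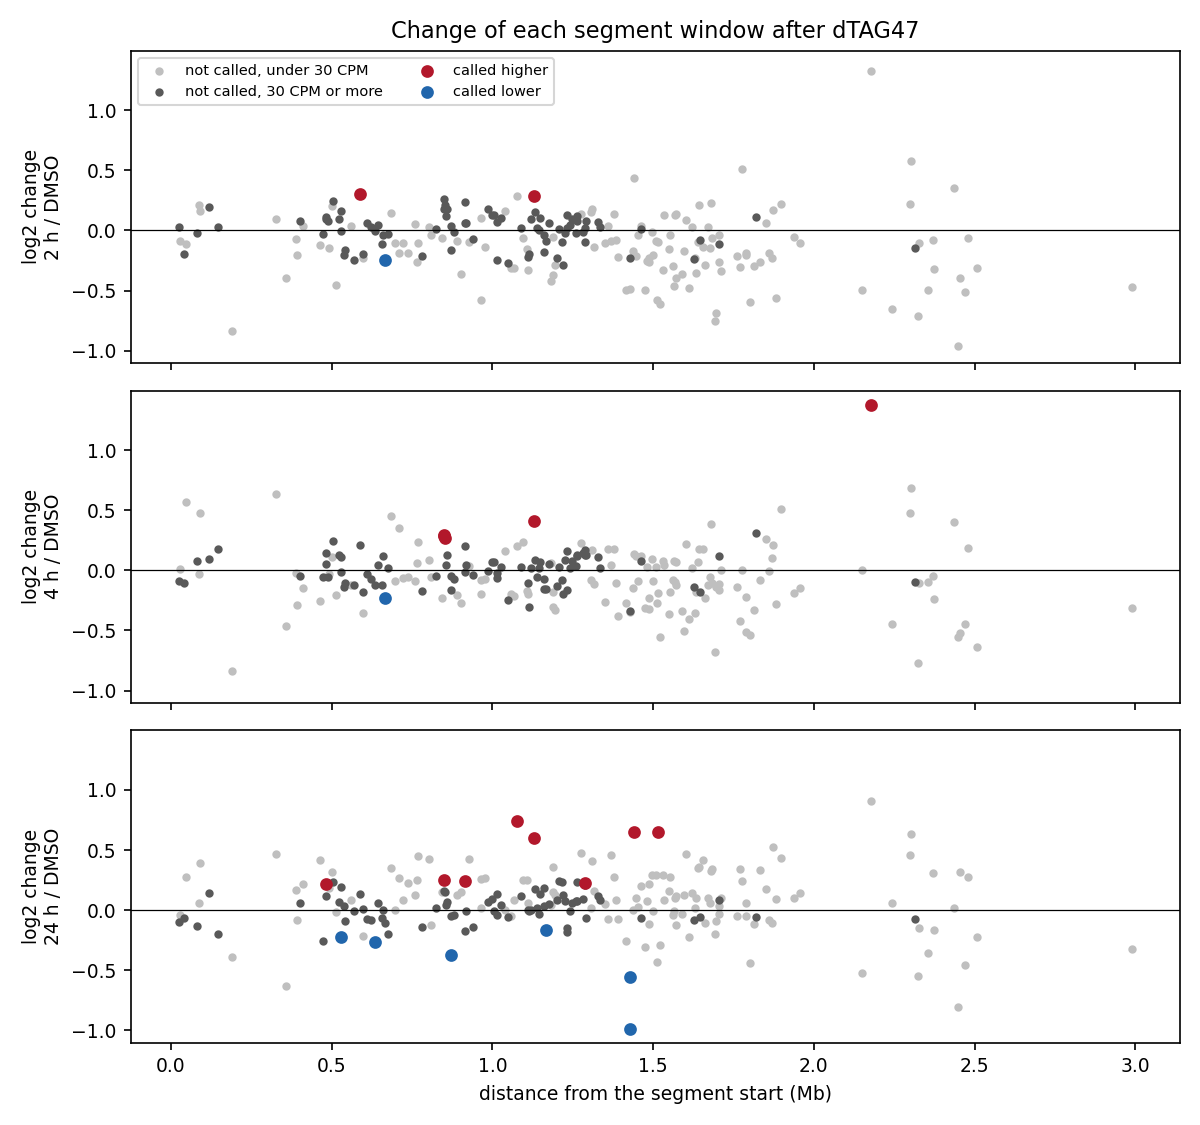
Log2 change of each window against DMSO after 2 h, 4 h and 24 h of dTAG47, by distance from the start of the stretch in Mb. Red windows were called higher and blue ones lower by edgeR at an adjusted p of 0.05, dark grey windows were not called and averaged 30 CPM or more, and light grey ones were not called and averaged less. Most dark grey points lie close to 0 at every time, and the 14 called windows at 24 h are scattered between 0.4 and 1.6 Mb.

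The clearest rise was at chr12:58129018-58129418, inside the strongest cluster. It measured 174 and 180 CPM in DMSO, 220 and 213 CPM at 2 h, 243 and 227 CPM at 4 h, and 274 and 261 CPM at 24 h. The 4 groups did not overlap, and each later one was higher. The log2 changes against DMSO were 0.29 at 2 h (SE 0.07, edgeR adjusted p = 0.00607), 0.41 at 4 h (SE 0.07, 3.01e-06) and 0.60 at 24 h (SE 0.06, 5.84e-14), the last a 1.51-fold rise. From 2 h to 24 h it rose by 0.31 (edgeR adjusted p = 0.000297), and the change from 4 h to 24 h, 0.19, did not pass (0.0971). The 24 h rise ran from 0.56 to 0.66 over the alternative analyses. The 2 h call was lost with DESeq2 (adjusted p = 0.412) and in a test against a 1.2-fold change (glmTreat). It was also lost without DMSO library A or B, at log2 changes of 0.27 and 0.31. That glmTreat test did not call the 4 h rise either (adjusted p = 0.219). From 2 h to 4 h the change was not called in any of 14 analyses.

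Its neighbours were not called. The window at 58120039, the table's number 4, was at 589 ± 21.6 CPM in DMSO and 589 ± 7.52 CPM at 24 h (SD, n = 2), a log2 change of 0.00. On the other side, the window at 58132302 measured 165 and 147 CPM in DMSO and 179 and 174 CPM at 24 h. Those groups did not overlap, but the log2 change of 0.18 was not called (SE 0.07, edgeR adjusted p = 0.0968). Whether the rise at 58129018 differed from the changes of its neighbours was not tested.

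The clearest fall was at chr12:58427906-58428306, just inside the weak, crowded piece. It measured 45.3 and 52.8 CPM in DMSO, 45.4 and 38.8 CPM at 2 h, 37.4 and 40.2 CPM at 4 h, and 26.5 and 22.7 CPM at 24 h. The 2 h libraries overlapped DMSO, those at 4 h lay just below it and those at 24 h were far below every other library. The log2 changes were -0.23 at 2 h (edgeR adjusted p = 0.448), -0.34 at 4 h (0.139) and -0.99 at 24 h (SE 0.13, 3.74e-10), which left 50.5% of the DMSO level. The fall from 2 h to 24 h was -0.75 (edgeR adjusted p = 1.53e-05) and that from 4 h to 24 h -0.65 (0.00157). Over the alternative analyses the 24 h change ran from -1.11 to -0.87, with the highest adjusted p at 8.49e-05.

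The next window, chr12:58429149-58429549, 843 bases further on, also fell at 24 h. It measured 22.2 and 22.7 CPM in DMSO and 16.8 and 13.4 CPM at 24 h, a log2 change of -0.56 (SE 0.18, edgeR adjusted p = 0.029). Its 4 h libraries, 22.9 and 12.9 CPM, lay on both sides of DMSO. The windows before and after this pair, at 58416327 and 58436752, were not called, with log2 changes of -0.26 and -0.00 at 24 h. DESeq2 called the windows at 58129018 and 58427906 and no other in the stretch at 24 h, the first of these at 4 h and none at 2 h. A test against a change of 1.2-fold (glmTreat) also called those and no other at 24 h. Over the table at 24 h, DESeq2 called 391 lower and 93 higher of 39620 windows, and glmTreat 926 and 472 of 41791.

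**Figure D3:**
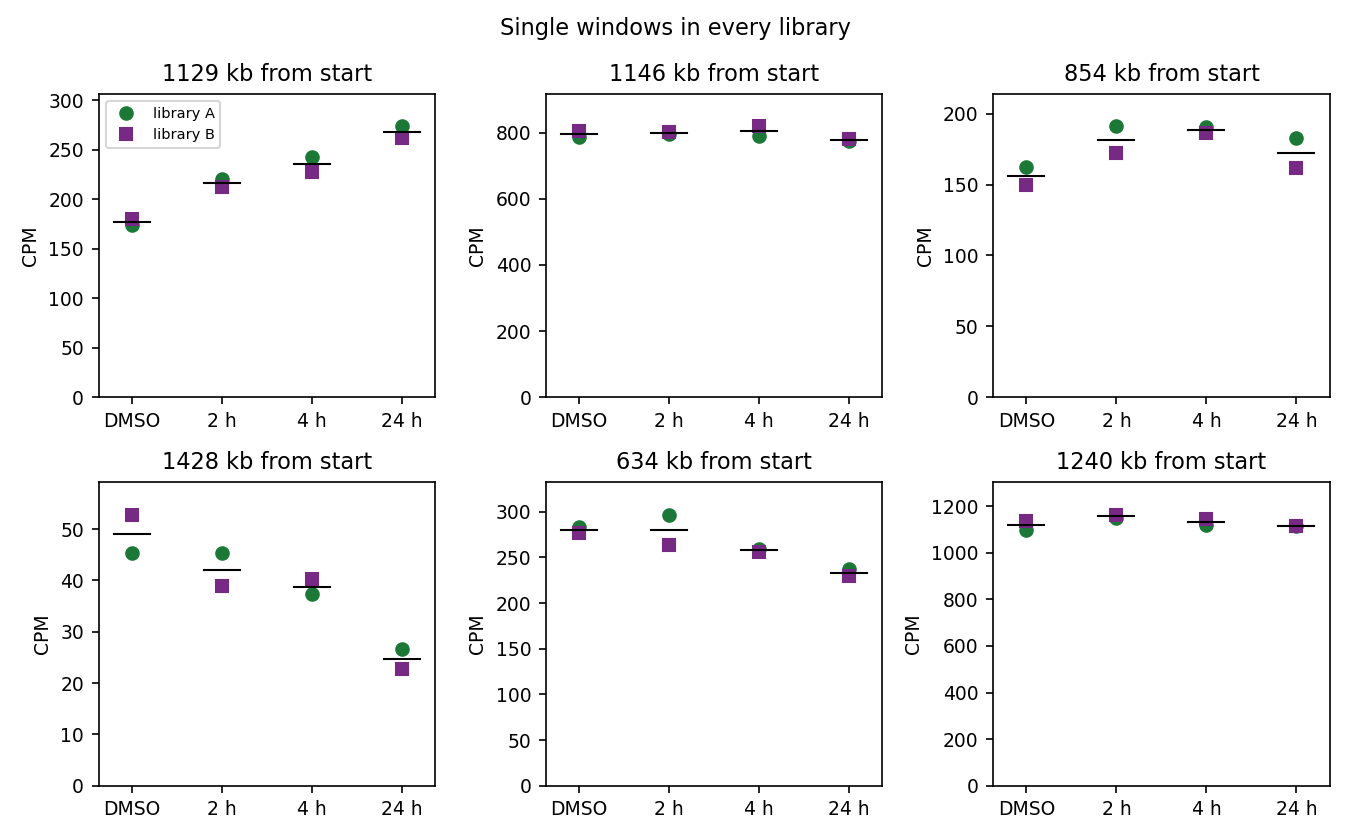
Level (CPM) of 6 windows in each library, with the distance of each from the start of the stretch in kb above its panel, circles for library A, squares for library B and a line at the group mean. Starts are 58129018 (1129 kb), 58145750 (1146 kb), 57853560 (854 kb), 58427906 (1428 kb), 57633840 (634 kb) and 58240143 (1240 kb). The window at 1129 kb climbs with each time, that at 1428 kb is at 26.5 and 22.7 CPM at 24 h, and those at 1146 and 1240 kb stay at 777 to 820 CPM and at 1098 to 1164 CPM.

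The remaining windows called lower at 24 h changed less. At 24 h the window at 57633840 went from 283 and 276 CPM in DMSO to 237 and 229 CPM, with no overlap (log2 change -0.26, SE 0.06, edgeR adjusted p = 0.00134). The window at 57871262 went from 70.9 and 77.6 CPM to 58.8 and 55.5 CPM (log2 change -0.37, SE 0.10, edgeR adjusted p = 0.00458). At 2 h these windows had log2 changes of -0.00 and 0.03. The window at 57529526 went from 144 and 129 CPM to 126 and 106 CPM at 24 h (log2 change -0.23, edgeR adjusted p = 0.0418), and this call was lost with total counts in place of TMM. DESeq2 called none of these 3.

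Of the windows that rose at 24 h, 3 were weak ones. The window at 58076093 measured 6.83 and 10.5 CPM in DMSO and 13.1 and 16.2 CPM at 24 h (log2 change 0.74, edgeR adjusted p = 0.0204). Those at 58516174 and 58440482 rose by 0.65 each (edgeR adjusted p = 0.0334 and 0.02), from means of 10.5 and 11.8 CPM in DMSO to 16.6 and 18.5 CPM. At 58516174 the 4 h libraries, 12.3 and 6.45 CPM, spanned both DMSO values. The other rises at 24 h were at stronger windows and smaller: the window at 57849187 rose by 0.25, and the 3 not yet described rose by 0.22 to 0.24.

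A group of neighbouring windows in the second strongest cluster rose at 4 h. The window at 57848341 measured 117 and 110 CPM in DMSO and 143 and 136 CPM at 4 h, that at 57849187 92.2 and 101 CPM and then 117 and 119 CPM, and that at 57853560 162 and 150 CPM and then 191 and 186 CPM. None of the 3 overlapped DMSO at 4 h. Their log2 changes at 4 h were 0.30, 0.28 and 0.27 (SE 0.07 to 0.08, edgeR adjusted p = 0.0162, 0.0361 and 0.0144). At 2 h they were 0.18, 0.26 and 0.21, and none passed (0.332, 0.0952 and 0.124). At 24 h the window at 57849187 was still called, and the other 2 had changes of 0.16 and 0.15 that were not (edgeR adjusted p = 0.217 and 0.198). DESeq2 called none of the 3 at 4 h.

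At the early times a few more windows were called. The window at 57665988 fell at 2 h and 4 h, from 217 and 247 CPM in DMSO to 198 and 193 CPM and then 197 and 200 CPM (log2 changes -0.25 and -0.23, edgeR adjusted p = 0.0252 and 0.038). At 24 h it stood at 208 and 224 CPM, overlapping DMSO. The window at 57587942 rose at 2 h, from 76.9 and 84.7 CPM to 99.9 and 99.6 CPM (log2 change 0.30, edgeR adjusted p = 0.0471), and its 24 h change of 0.14 was not called. The largest change at 4 h, 1.38, was at the weak window 59179109, which went from 1.71 and 2.56 CPM to 6.0 and 5.21 CPM (SE 0.41, edgeR adjusted p = 0.0431). It was also the 1 cluster of the stretch called at any time, as a cluster of 1 window at 4 h. That call was lost when any 1 library of the 2 groups was left out. Over all clusters, 2% were lower and 0.972% higher at 4 h.

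Clusters were otherwise not called. At 2 h edgeR and DESeq2 called 0 clusters of the stretch, against 1.53% lower and 0.474% higher by edgeR over the table. DESeq2 called 38 lower and 4 higher of 16111 clusters there. At an unadjusted p under 0.05, 5 were lower and 4 higher (over the table, 6.78% and 5.17%). At 24 h both tools again called 0, where edgeR called 5.55% lower and 4% higher over the table. DESeq2 called 352 lower and 139 higher of 23253 clusters at that time. At the unadjusted p, 2 clusters were lower and 6 higher (over the table, 11.7% and 9.95%).

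Times of treatment were also compared directly. From 2 h to 4 h, edgeR and DESeq2 called 0 windows in the stretch, and both called 0 windows in the table. At an unadjusted p under 0.05, 2 were lower and 9 higher in the stretch, against 3.62% and 3.3% of the table. The lowest p values were at 57984934 and 57399943, lower by 0.19 and 0.13, and at 58566268 and 58183841, higher by 0.54 and 0.48 (edgeR adjusted p = 0.698, 0.709, 0.531 and 0.597). From 2 h to 24 h, 5 windows fell and 6 rose (over the table, 2.49% and 1.69%). Between 4 h and 24 h, 3 went down and 1 went up (over the table, 0.68% and 0.438%). Windows that differed between 2 times without a call against DMSO included 58230821, at 115 and 111 CPM at 2 h, 116 and 114 CPM at 4 h and 95.7 and 90.1 CPM at 24 h.

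**Figure D4:**
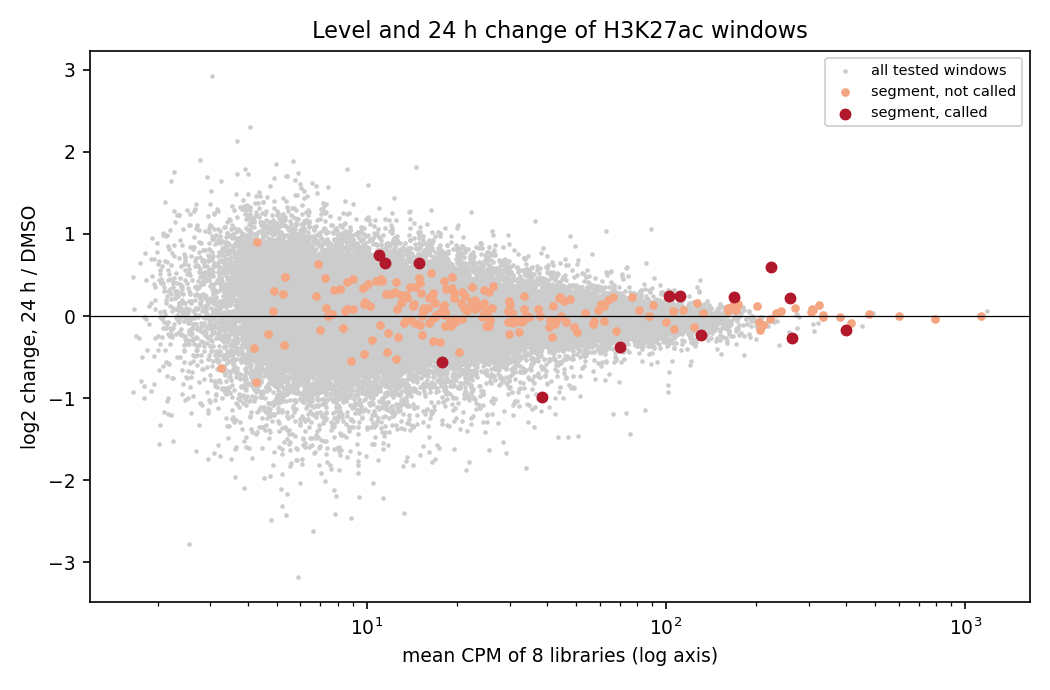
Log2 change from DMSO to 24 h of dTAG47 against the mean level over 8 libraries (CPM, log axis), for all 41791 tested windows (grey), windows of the stretch that were not called (orange) and the 14 that were (red). The strongest windows of the stretch lie near 0, and none of its windows lies beyond 1 in either direction.

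Weak and strong windows of the stretch differed in how their libraries behaved. A level of 30 CPM, chosen after the levels were seen, separates 133 weak from 86 strong windows. The strong windows had median log2 changes of 0.02, 0.02 and 0.03 at 2 h, 4 h and 24 h. The weak ones had medians of -0.14, -0.10 and 0.10, where all tested windows had 0.00 at each time. Split at the same level, weak windows outside the stretch had medians of 0.01, 0.02 and 0.03. Strong windows outside it had 0.00, -0.02 and -0.03. Over all 219 windows the medians were -0.08, -0.06 and 0.07. That at 2 h turned to 0.01 without library B of 2 h, and was -0.14 without library A of 2 h and -0.03 without DMSO library B. That at 4 h turned to 0.05 without library B of 4 h, and was -0.13 without library A of 4 h and -0.01 without DMSO library B. That at 24 h was 0.03 without library A of 24 h. At 2 h and 4 h the median and the log2 ratio of the share of counts, 0.02 at both, differ in sign, since the share is mostly that of the strong windows.

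The medians of the weak windows followed single libraries. Of the 186 windows from 57.4 to 59 Mb, 107 are weak, and their summed level was 1823 and 1926 CPM in DMSO, 1887 and 1535 CPM at 2 h, 1950 and 1582 CPM at 4 h, and 2115 and 1914 CPM at 24 h. Library B was the lower at 2 h and at 4 h, and library A in each pair was close to DMSO. Without library B of 2 h the weak median at 2 h was -0.03, and without library A it was -0.24. Without library B of 4 h the weak median at 4 h turned to 0.05, and without library A it was -0.25. At 24 h the weak median was 0.05 without library A of 24 h and 0.18 without library B.

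Library B of 2 h and of 4 h was also the lower of its pair in much weaker windows elsewhere, by a smaller fraction. These windows lie below the 10th percentile of the others, 5.09 CPM. Library medians of the 107 weak windows ran from 13.9 to 18.8 CPM, so the 2 sets are not matched in level. The 4185 weakest of the windows outside the stretch summed to 16519 and 16708 CPM in DMSO, 16435 and 15107 CPM at 2 h, 16817 and 14646 CPM at 4 h, and 18302 and 17458 CPM at 24 h. The 79 strong windows from 57.4 to 59 Mb summed to 12415 and 12318 CPM in DMSO, 12759 and 12721 CPM at 2 h, 12595 and 12575 CPM at 4 h, and 12650 and 12490 CPM at 24 h, so B was not low there. The part of these libraries in the weak windows' changes was not tested. In the stretch, counts of the 2 libraries of a group differed by a chi-square per degree of freedom of 1.18 in DMSO, 2.36 at 2 h, 2.40 at 4 h and 1.44 at 24 h, against 1.06, 1.21, 1.13 and 1.07 over the table. This measure can grow with the count, and windows of the stretch had a mean of 69.9 CPM against 23.5 CPM elsewhere. The 2 sets are thus not matched in level here either.

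**Figure D5:**
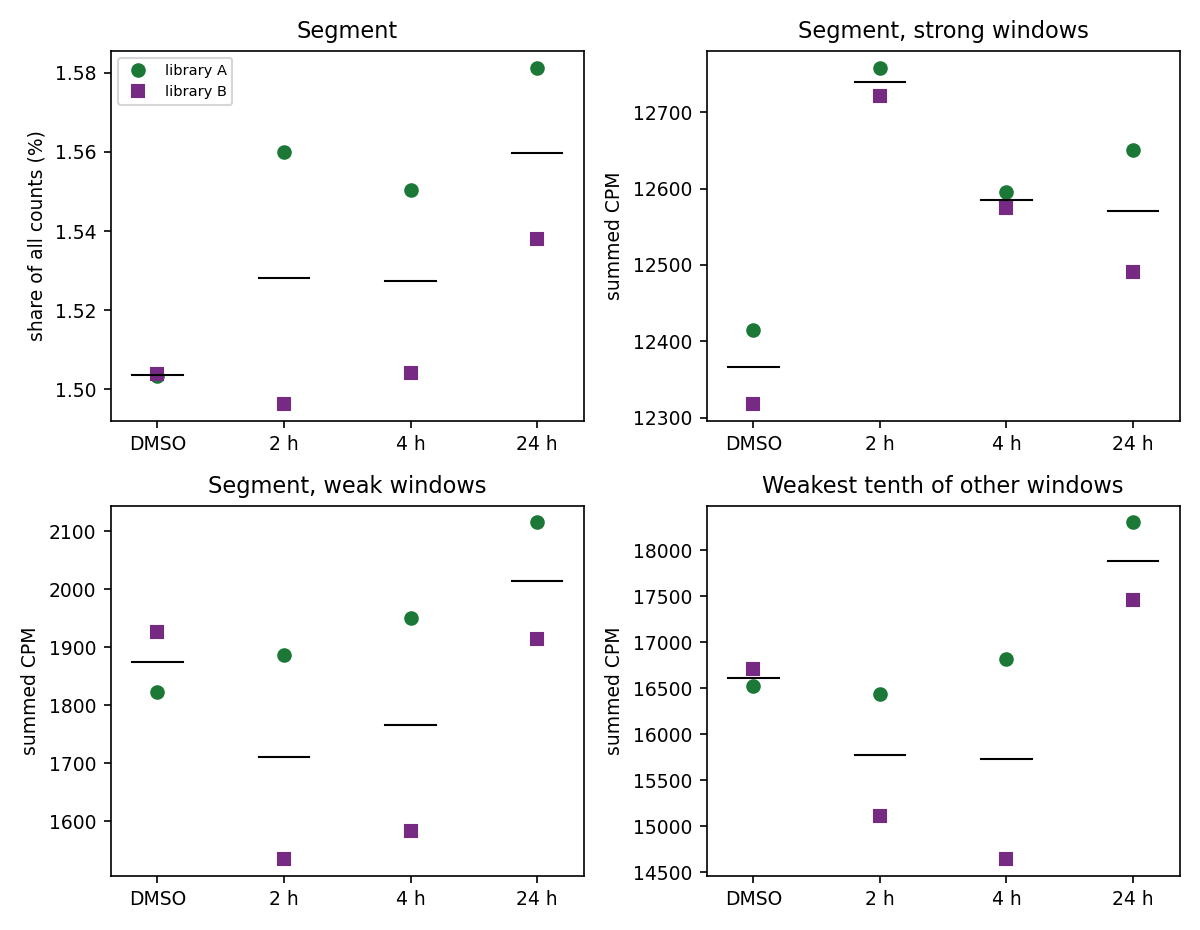
Share of all counts in the stretch (%), and summed level (CPM) of 3 sets of windows, in each library. The sets are the 79 strong and the 107 weak windows from 57.4 to 59 Mb, and the 4185 weakest windows outside the stretch. Circles are library A, squares library B and lines group means, and the axes do not start at 0. Library B of 2 h and of 4 h is the lowest point in both panels of weak windows and is not low in the panel of strong windows.

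Between 2 h and 24 h the weak windows differed most. Their median log2 change was 0.23, and 39 of 133 (29.3%) were higher at an unadjusted p under 0.05 and 0 lower. Among weak windows elsewhere 9.74% were higher at that p, and 8.39% of all windows. After adjustment 3 of the 133 were called higher, at 58516174, 58189447 and 57965979. The count of 39 became 8 without library B of 2 h and 55 without library A of 2 h, with medians of 0.09 and 0.42. Without library A of 24 h it became 19, with a median of 0.15. DESeq2 found 5 at the unadjusted p. Over the table it found 809 windows higher at that p, where edgeR found 3505.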

How the data were processed

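H3K27ac ChIP-seq counts of 8 Rh30 libraries were used. Per the submitters' processing notes, which give no roles or order, the builds were hg19 and dm3 (Drosophila) and the tools DESeq2, DiffBind, MACS2, Bowtie2 and Trimmomatic 0.32. The authors deposited raw read counts in 42067 windows, per the file headers, and totals ran from 3540104 to 5001652 counts per library. These totals lie within windows, so sequencing depth is unknown. No source read here says if Drosophila chromatin was added as a spike-in, so a change common to all windows cannot be seen after scaling. Columns carry letters where the labels carry numbers, so libraries are known by group only. The number of unassigned columns was 0. Coordinates are those of the deposited table, and whether starts count from 0 or 1 is not stated. No hg19 annotation was used, so windows are named by position.

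Counts were tested with edgeR 4.0.16 (R 4.3.3): filterByExpr with a minimum count of 10 and total of 15, TMM scaling and robust quasi-likelihood fits of the 4 groups together. P-values were adjusted by Benjamini-Hochberg over all 41791 windows, or 26144 clusters, and called at 0.05. The common dispersion was 0.00108 and the median prior degrees of freedom 182, so a window's p-value rests mostly on the spread shared by all windows. Alternatives were DESeq2 1.42.0, other scalings, no filter, glmTreat, a block by letter, pairwise fits and leaving out each library. Offsets that follow abundance were added after seeing the data. The procedure was tested on simulated data. The members and lists were chosen with earlier results of these data known. Named were the 10 strongest windows and 5 strongest clusters, the windows at the limits of the stretch, and per comparison and direction up to 5 called windows (3 clusters) with the largest change and no overlap between groups. Where none was called, the 2 with the lowest p were named. The window at 58230821 is named by this rule, while the neighbours of the windows at 58129018 and 58427906, the cluster at 58590062 and the pieces of the stretch were chosen after their values were seen.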

Additional observations from a re-analysis of the deposited data

Results flagged for a closer look

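Changes between times of treatment, tested directly by edgeR's quasi-likelihood test with adjusted p under 0.05, put 14 results here. They concern windows whose effects at 2 times differ.

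From 2 h to 24 h the windows that fell were 58427906 (log2 change -0.75), 57871262 (-0.41), 58230821 (-0.28), 57633840 (-0.26) and 57913889 (-0.23). At 57913889 the libraries measured 211 and 225 CPM at 2 h and 186 and 187 CPM at 24 h. The windows that rose were 58516174 (0.74), 58189447 (0.73), 57965979 (0.59), 58221105 (0.41) and 58129018 (0.31). At 57965979 the 2 h libraries, 10.7 and 14.5 CPM, were below those of DMSO, 18.5 and 19.9 CPM, and the 24 h libraries, 17.4 and 21.6 CPM, enclosed them. At 58221105 the values were 34.9 and 37.8 CPM at 2 h and 50.3 and 46.4 CPM at 24 h, with 48.1 and 40.9 CPM in DMSO. Between 4 h and 24 h, 58427906 (-0.65), 58820032 (-0.37) and 58230821 (-0.31) fell and 58516174 (0.84) rose. With DESeq2, the 2 h to 24 h calls at 58427906 and 58129018 were the 2 made in the stretch, and 0 were made from 4 h to 24 h. Over the table DESeq2 called 49 lower and 12 higher of 22493 windows and 3 and 0 of 42067 in these comparisons.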

How the results depend on the processing

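Of 619 alternatives of 48 named results, 0 reversed a direction, 453 kept their side of the threshold, 153 lost a call and 13 gained one. Called results were named only where the groups did not overlap, so leaving out 1 library could hardly reverse them. The 0 reversals are therefore no measure of stability. DESeq2 called 0 windows lower and 0 higher at 2 h, 0 and 1 at 4 h, 1 and 1 at 24 h, 1 and 1 from 2 h to 24 h, and 0 and 0 from 4 h to 24 h. Over the table DESeq2 called 24 and 0 of 33911, 78 and 4 of 34726, and 391 and 93 of 39620 windows against DMSO. From 2 h and from 4 h to 24 h it called 49 and 12 of 22493, and 3 and 0 of 42067. Against a 1.2-fold change (glmTreat) the counts were 0 and 0, 0 and 0, 1 and 1, 1 and 0, and 0 and 0. Of 41791 windows of the table, glmTreat called 97 and 0, 251 and 18, 926 and 472, 187 and 122, and 14 and 11. Both thus called fewer windows than the main test over the table too. Offsets that follow abundance, added after seeing the data, gave 2 lower and 5 higher at 2 h, 0 and 5 at 4 h, 4 and 14 at 24 h, 10 higher from 2 h to 24 h and 2 higher from 4 h to 24 h. Over the table they gave 474 and 91, 739 and 241, and 2127 and 1446 of 41791 windows against DMSO. Between times they gave 649 higher from 2 h to 24 h and 176 higher from 4 h to 24 h. Total counts in place of TMM gave 4 lower and 10 higher at 24 h, 8 higher from 2 h to 24 h and 2 higher from 4 h to 24 h. Over the table, total counts gave 1839 lower and 1646 higher at 24 h, and 811 and 194 higher between those times. Fitting the 2 groups alone gave 0 lower and 1 higher at 2 h (over the table, 419 and 73 of 41464). The cause of these moves was not tested. For clusters, the offsets gave 1 lower and 1 higher at 2 h and 1 and 1 at 24 h, and total counts 1 higher at 2 h and 2 higher at 24 h. Over the table the offsets gave 415 and 110 clusters at 2 h and 1440 and 1080 at 24 h. Total counts there gave 139 higher at 2 h and 1206 higher at 24 h. Fitting the 2 groups alone gave 0 higher at 4 h and 1 lower and 1 higher at 24 h (over the table, 239, 1434 and 1048). DESeq2 and glmTreat gave 0 higher at 4 h, where over the table they gave 11 of 18661 and 9 of 26144. The ratio of levels was 2.57 for a narrower range of 1 Mb and 2.97 by means.

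Leaving out 1 library gave 0 to 3 lower and 0 to 1 higher windows at 2 h, 0 to 1 and 1 to 3 at 4 h, 2 to 5 and 2 to 4 at 24 h, 1 to 4 and 1 to 12 from 2 h to 24 h, and 0 to 1 and 0 to 4 from 4 h to 24 h. The 12 came without library A of 2 h and the 4 without library A of 4 h. From 2 h to 4 h it gave 0. Clusters gave 0 to 2 lower at 2 h, 0 higher at 4 h and 0 to 1 in each direction at 24 h. The log2 ratio of the share ran from -0.01 to 0.05 at 2 h, 0.00 to 0.04 at 4 h and 0.03 to 0.07 at 24 h. With a group reduced to 1 library, that library is assumed to vary like the others. Over the table, every such fit against DMSO called fewer windows and fewer clusters than the fit of all libraries. The fits from 2 h and from 4 h to 24 h also called fewer windows over the table. In the stretch, by contrast, more windows rose from 2 h to 24 h without library A of 2 h. The same held from 4 h to 24 h without library A of 4 h. Why the stretch and the table differed in these fits was not tested.

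A replicate block by column letter called 3 windows at 2 h, 6 at 4 h and 14 at 24 h, all calls without the block among them, and 1 cluster lower and 1 higher at 2 h and at 24 h. Of 41791 windows of the table, the block called 449, 711 and 2087 lower in order of time. It called 88, 249 and 1478 higher in the same order. Of 26144 clusters, 399 were lower and 126 higher after 2 h of dTAG47, where the main test had 399 and 124. After 24 h, 1448 clusters were lower and 1044 higher, where the main test had 1450 and 1045. The letters share no stated source. Differences between A and B correlated from -0.03 to 0.05 between groups over 41791 windows. Over the table these differences were close to counting error, with a chi-square per degree of freedom of 1.06 to 1.21. A low correlation therefore cannot tell whether equal letters share a source.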

Other observations

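A pair of windows stood lower at 2 h than in DMSO and near DMSO again at 24 h, both without a call against DMSO. At 58566268 the values were 28.5 and 25.3 CPM in DMSO, 21.5 and 17.9 CPM at 2 h, 31.6 and 25.3 CPM at 4 h, and 26.1 and 27.3 CPM at 24 h. At 58183841 they were 17.7 and 19.04 CPM, 14.9 and 12.8 CPM, 21.5 and 16.9 CPM, and 19.02 and 18.7 CPM in the same order. The window at 58820032, the strongest window of the weak, crowded piece, stood highest at 4 h, with 60.4 and 46.9 CPM in DMSO, 63.0 and 54.0 CPM, 68.4 and 64.5 CPM, and 54.1 and 48.5 CPM at the 3 times. These windows were named for the comparisons between times.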
